A study of Homo sapiens with 8 samples.

Results

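The genes described here are the 10 genes of the NRF2 antioxidant axis that were listed by name: HMOX1, NFE2L2, KEAP1, NQO1, GCLM, GCLC, SLC7A11, TXNRD1, SRXN1 and FTL. All 10 were found in the deposited table of 54174 gene symbols, and all 10 had a value in every library and were among the 9016 genes tested. They were listed with their values in the knockout and control libraries already known, so their levels are given as a description, with no test. The cells were 143B, an established human osteosarcoma line. RNA was taken 48 h after transient transfection with a vector plasmid (control, 4 libraries) or with a plasmid labelled NELL1KO (NELL1 knockout, 4 libraries). The series design calls them biological replicates. The labels do not say how the plasmid disrupts NELL1, whether transfected cells were selected or how many cells carried a disrupted gene. In such bulk RNA, fewer responding cells and a smaller response per cell cannot be told apart.

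NRF2, the protein encoded by NFE2L2, is a transcription factor that is held at a low level by KEAP1, an adaptor that hands it to a CUL3 ubiquitin ligase. Electrophiles and oxidants modify KEAP1, NRF2 then accumulates, pairs with small MAF proteins and binds antioxidant response elements in its target genes. HMOX1 encodes heme oxygenase 1, which opens heme to biliverdin, carbon monoxide and iron. HMOX1 is also held down by BACH1, a heme-sensitive repressor that competes for the same elements. Because NRF2 is controlled mainly through protein stability, the level of its own transcript is not a readout of its activity.

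The antioxidant response element has the core TGANNNNGC, and its letters were looked for on both strands in the 250 bases before the start used in the RefSeq promoter table (build GRCh38.p14). A promoter was found for 8 of the 10 genes. Entries for HMOX1 and SLC7A11 were not in that table. The core was present in 4 of the 8 promoters, against 36.3% of the promoters of 7423 tested genes. Its presence in this window therefore does not set these genes apart. Sequence farther from the start was not searched. The stricter form TGACNNNGC was in 2 of the 8, GCLM and TXNRD1, against 12.4% of promoters. A match is a run of letters and not a shown binding site. The AP-1 motif TGANTCA and the ATF4 element TGATGCAA were in none of the 8, against 3.64% and 0.418% of promoters. The other gene with the core was NFE2L2, whose window does not end at the start that RefSeq's gene table gives. In the 3 enzyme genes with the core, knockout libraries 1 and 2 lay above every control. That also held for GCLC, SRXN1 and FTL, which had no core in the window. A link between the core and these values was not tested. The matches in the 3 enzyme genes are shown with 10 bases on each side, 5′ to 3′ on the strand of the gene. The matched core is in capitals, and in NQO1 and GCLM it reads on the opposite strand.
NQO1 (chr16:69726661-69726689, minus strand): tcctggagctGCAGCCTCAgcatcctccg
GCLM (chr1:93909446-93909474, minus strand): tacgatttctGCTTAGTCAttgtcttcca
TXNRD1 (chr12:104215670-104215698, plus strand): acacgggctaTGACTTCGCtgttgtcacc

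Values are the deposited log2 values, quantile normalized between libraries, so a difference of 1 is a doubling relative to the rest of the transcriptome. The unit before the logarithm is not stated, and levels of different genes were therefore not compared. The targeted transcript was near the bottom of the measured range: NELL1 averaged -5.87 ± 1.29 (SD, n = 4) without and -5.88 ± 1.07 (SD, n = 3, with 1 blank cell) with the knockout plasmid (exact two-sided permutation test, p = 1), so it does not check the labels. Knockout libraries 1 and 2 lay close together, as did 3 and 4. Across the tested genes the SD of the difference between libraries was 0.123 and 0.128 within these pairs and 0.456 to 0.500 between them. Among the controls it was 0.102 for libraries 1 and 2 and 0.192 for 3 and 4. Control library 4 lay nearer to controls 1 and 2 (0.153 and 0.134) than to control 3. Controls 3 and 4 were thus not a close pair like those of the knockout libraries. Replicates 1-2 and 3-4 are shown apart because of the knockout libraries. The labels do not say what these sets are, and with so little spread inside a pair, p-values within the sets measure a spread that may be technical. Of 12 mesenchymal and osteoblast lineage markers, all had a value in some library and 10 in every library, VIM, RUNX2 and TWIST1 among them. COL1A2 and THY1 were blank in part of the libraries. The epithelial genes KRT8, KRT18 and EPCAM also had a value throughout, while CDH1 was blank in 6 libraries. Of 9 blood cell markers, PTPRC, TYROBP, CD3E and MS4A1 were blank in every library, and so were the erythroid markers HBB and ALAS2.

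HMOX1 showed the widest spread of the 10 genes. Controls 1 to 4 had HMOX1 log2 values of 1.66, 1.48, 2.17 and 1.83, and knockout libraries 1 to 4 had 3.69, 3.90, 1.17 and 1.62. Knockout libraries 1 and 2 lay above every control, by at least 1.52, whereas library 3 lay below every control and library 4 inside the control range. The controls averaged 1.78 ± 0.30 and the knockout libraries 2.59 ± 1.40 (SD, n = 4 each). The difference of 0.81 was smaller than the SD of the knockout group, and it ranged from 0.37 without knockout library 2 to 1.28 without knockout library 3. Against the controls of the same numbers, HMOX1 was 2.23 higher in replicates 1 and 2, a 4.68-fold level, and 0.61 lower in replicates 3 and 4. The second value was -0.39 without knockout library 3 and -0.83 without knockout library 4. The first value ranked 4th from the top among 9016 genes. The gene spans chr22:35380361-35394214 on the plus strand (GENCODE 29, GRCh38), with no annotated gene overlapping it.

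**Figure D1:**
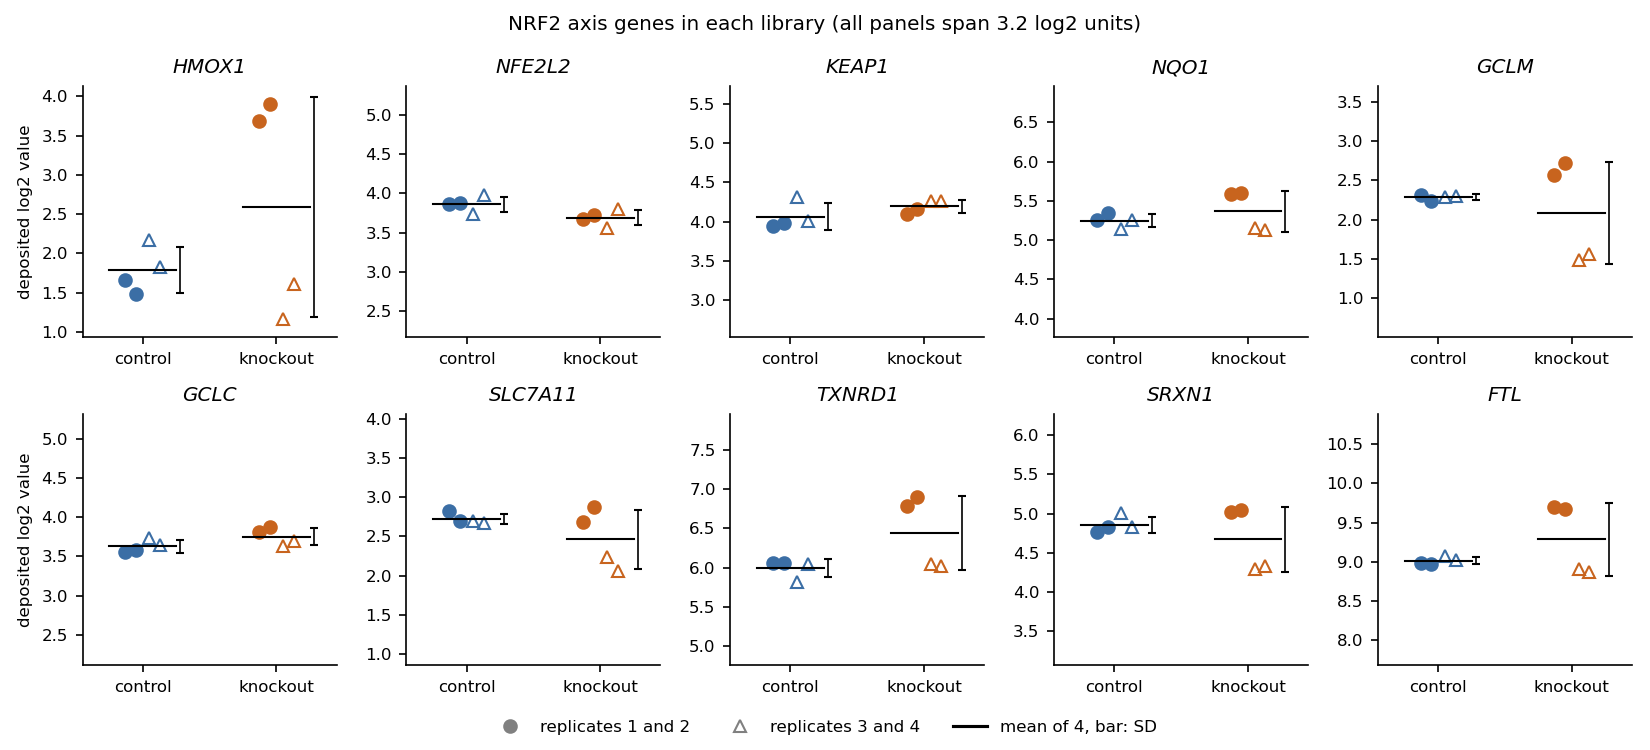
Deposited log2 value (vertical axis) of the 10 NRF2 axis genes in each library, with controls in blue and knockout libraries in orange. Filled circles are replicates 1 and 2, open triangles replicates 3 and 4, horizontal lines the mean of 4 libraries and bars the SD. The HMOX1 values of knockout libraries 1 and 2 (3.69 and 3.90) stand apart from the other 6, whereas NFE2L2 and KEAP1 show no such gap.

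The regulators of the axis differed little. NFE2L2 was 3.86, 3.87, 3.73 and 3.97 in the controls and 3.67, 3.73, 3.56 and 3.80 in the knockout libraries. Knockout libraries 1 and 2 lay just below the lowest control and libraries 3 and 4 overlapped the controls. Replicates 1 and 2 differed by -0.17 and replicates 3 and 4 by -0.17 as well, the latter between -0.29 without control library 3 and -0.05 without control library 4. The transcript of NRF2 itself thus had no split between the sets like that of HMOX1. KEAP1, the inhibitor, was 3.94, 3.99, 4.32 and 4.01 in the controls and 4.10, 4.16, 4.26 and 4.26 in the knockout libraries. Control library 3 was the highest of all 8. KEAP1 differed by 0.17 in the first set and by 0.10 in the second, no larger than the SD among the controls (0.17). The second value was -0.06 without control library 4 and 0.25 without control library 3. NFE2L2 (chr2:177227595-177392697) overlaps 11 other annotated genes, and how reads in shared stretches were counted is not stated.

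Glutathione supply depends on the import of cystine by SLC7A11 and on glutamate-cysteine ligase, whose catalytic subunit is GCLC and whose modifier subunit is GCLM. GCLM was 2.32, 2.24, 2.29 and 2.30 in the controls, an SD of only 0.03. In the knockout libraries it was 2.56, 2.72, 1.48 and 1.56, so libraries 1 and 2 lay above all controls and libraries 3 and 4 below all of them. The opposite differences, 0.36 in replicates 1 and 2 and -0.77 in replicates 3 and 4, left a difference of -0.20 between the group means. GCLC was 3.56, 3.58, 3.73 and 3.65 in the controls and 3.81, 3.88, 3.63 and 3.69 in the knockout libraries. Libraries 1 and 2 exceeded the highest control by 0.08 or more and libraries 3 and 4 lay within the control range. The catalytic subunit thus varied less than the modifier subunit: knockout libraries 1 and 2 exceeded 3 and 4 by 0.18 for GCLC and by 1.12 for GCLM. SLC7A11 was 2.82, 2.70, 2.70 and 2.67 in the controls and 2.68, 2.87, 2.24 and 2.05 in the knockout libraries. Its first pair overlapped the controls and its second pair was at least 0.43 below the lowest of them, which gave differences of 0.02 for the first set and -0.54 for the second. An antisense gene, SLC7A11-AS1, lies over SLC7A11 on the other strand, and the use of strand in counting is not stated.

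The thioredoxin arm was represented by TXNRD1, the cytosolic thioredoxin reductase, and SRXN1, which repairs over-oxidized peroxiredoxins. TXNRD1 was 6.05, 6.06, 5.82 and 6.04 in the controls and 6.79, 6.91, 6.05 and 6.03 in the knockout libraries. Libraries 1 and 2 were at least 0.73 above every control, and libraries 3 and 4 lay within the control range. TXNRD1 differed by 0.79 in the first set and by 0.11 in the second, where control library 3 was the low value. SRXN1 was 4.77, 4.83, 5.00 and 4.84 in the controls and 5.02, 5.05, 4.30 and 4.33 in the knockout libraries. Its first pair passed the highest control by only 0.02, and its second pair lay at least 0.43 below the lowest control. SRXN1 differed by 0.23 in the first set and by -0.60 in the second.

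NQO1 reduces quinones, and FTL is the light chain of ferritin, the shell that stores the iron released from heme. NQO1 was 5.25, 5.34, 5.14 and 5.25 in the controls and 5.58, 5.60, 5.15 and 5.13 in the knockout libraries. Knockout libraries 1 and 2 exceeded every control by at least 0.24, and libraries 3 and 4 were near the lowest control. NQO1 differed by 0.29 in replicates 1 and 2 and by -0.06 in replicates 3 and 4. FTL was 8.99, 8.98, 9.08 and 9.03 in the controls and 9.71, 9.67, 8.90 and 8.87 in the knockout libraries. The first pair lay at least 0.59 above the controls and the second pair 0.07 or more below them. FTL differed by 0.71 in the first set, a 1.63-fold level, and by -0.17 in the second. GENCODE 29 names 16 pseudogenes after FTL, so part of its reads may be shared with near-identical copies.

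Over all 8 libraries the knockout values overlapped the control values for all 10 genes, whereas they did not overlap for 22.9% of all genes. Within the sets the picture differed. Knockout libraries 1 and 2 lay above all 4 controls for 7 of the 10 genes (all but NFE2L2, KEAP1 and SLC7A11), where the share of all genes was 32.5%, and below them for NFE2L2, where it was 27.7%. Knockout libraries 3 and 4 lay below all controls for GCLM, SLC7A11, SRXN1 and FTL, 4 of the 10, where the share of all genes was 28.8%. For HMOX1, GCLM, SRXN1 and FTL both knockout values were above both same-set controls in replicates 1-2 and below both in replicates 3-4. That pattern was found in 12.4% of all genes. Knockout libraries 1 and 2 lay above 3 and 4 for 8 of the 10 genes, against 43.6% of all genes, and below them for KEAP1, against 41%. The replicate sets were part of how the genes were listed, so these counts describe the 10 genes and nothing was read from them. Their median difference was 0.28 for the first set and -0.17 for the second, beside 0.03 and -0.00206 over all tested genes. Their median SD was 0.09 among the controls, close to the 0.10 of all genes, and 0.40 among the knockout libraries, beside 0.17 for all genes.

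**Figure D2:**
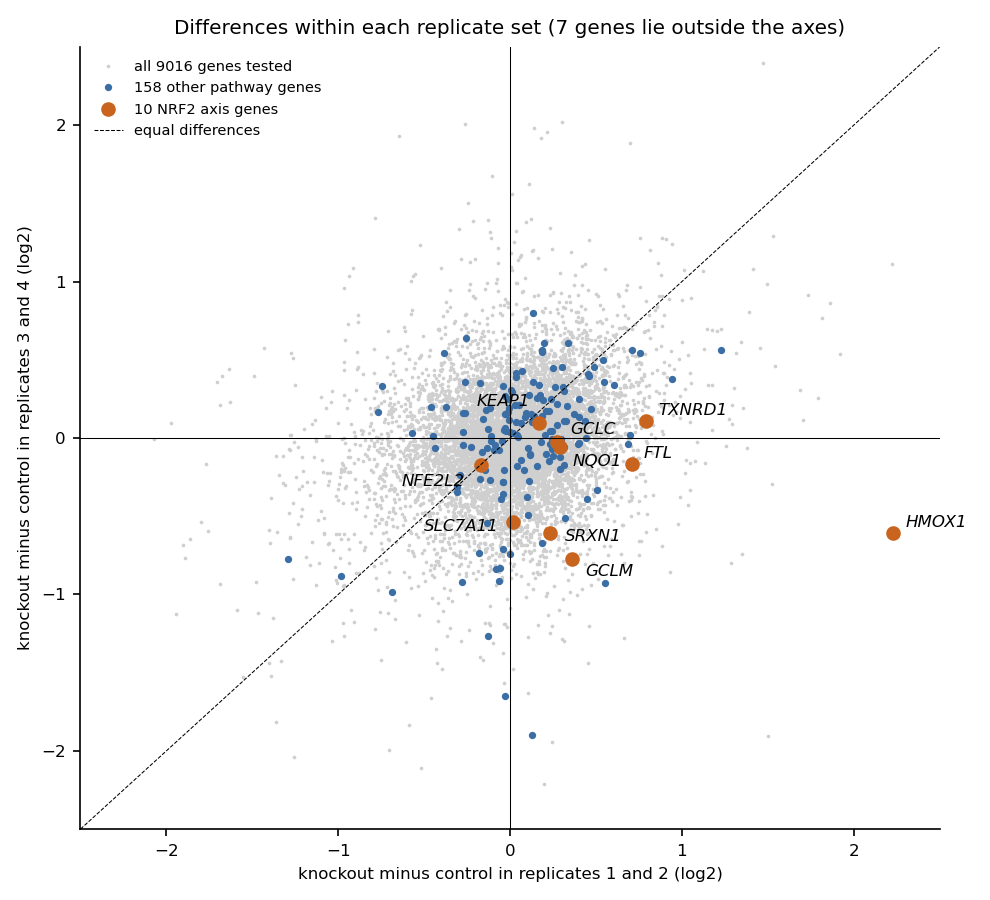
Knockout minus control log2 difference in replicates 1 and 2 (horizontal) and in replicates 3 and 4 (vertical) for all genes tested (grey), other pathway genes (blue) and the 10 NRF2 axis genes (orange). The dashed line marks equal differences, and 7 genes lie outside the axes. HMOX1 sits at 2.23 and -0.61, and 8 of the 10 genes have a negative value on the vertical axis.

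The sets also differed in marker genes, and the part of these in the HMOX1 split was not tested. On the linear scale the summed value of the mesenchymal list was 1837 to 1948 in the controls, 1253 to 1261 in knockout libraries 1 and 2 and 1607 to 1717 in knockout libraries 3 and 4. VIM made up most of that sum. The epithelial list summed to 535 to 578 in the controls and 611 to 702 in the knockout libraries, nearly all of it KRT18 and KRT8. EPCAM was 2.38 to 2.75 on the log2 scale in the controls, 2.55 and 2.76 in knockout libraries 1 and 2 and 1.83 and 1.94 in 3 and 4. The blood cell list summed to 52.9 to 59.9 in the controls, 54.7 to 58.9 in knockout libraries 1 and 2 and 46.7 in both knockout libraries 3 and 4. Nearly all of that sum was CD68, a lysosomal gene that is not confined to blood cells. Erythroid markers, the list most tied to heme, summed to no more than 0.215 in any library, and endothelial markers to no more than 0.663.

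The genes whose control-centred values came nearest to those of HMOX1 over the 8 libraries were GDF15, CCN1, EPAS1, ANKRD1 and RCAN1, with root mean square differences of 0.44, 0.44, 0.44, 0.45 and 0.46 log2 units. GDF15 encodes a stress-induced cytokine. It was 3.72, 3.74, 3.81 and 3.80 in the controls and 5.07, 5.14, 3.79 and 3.69 in the knockout libraries. CCN1 and ANKRD1 are known targets of the YAP coactivator, EPAS1 encodes HIF-2alpha and RCAN1 an inhibitor of calcineurin. All 5 were higher in knockout libraries 1 and 2 than in every other library. The nearest of the other NRF2 axis genes was TXNRD1, at rank 39 with 0.68, followed by FTL at rank 70 with 0.71, while NFE2L2 stood at rank 6057 with 1.11. This likeness is a description over 8 libraries that share 2 close pairs, and it favours genes with a change of similar size.

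**Figure D3:**
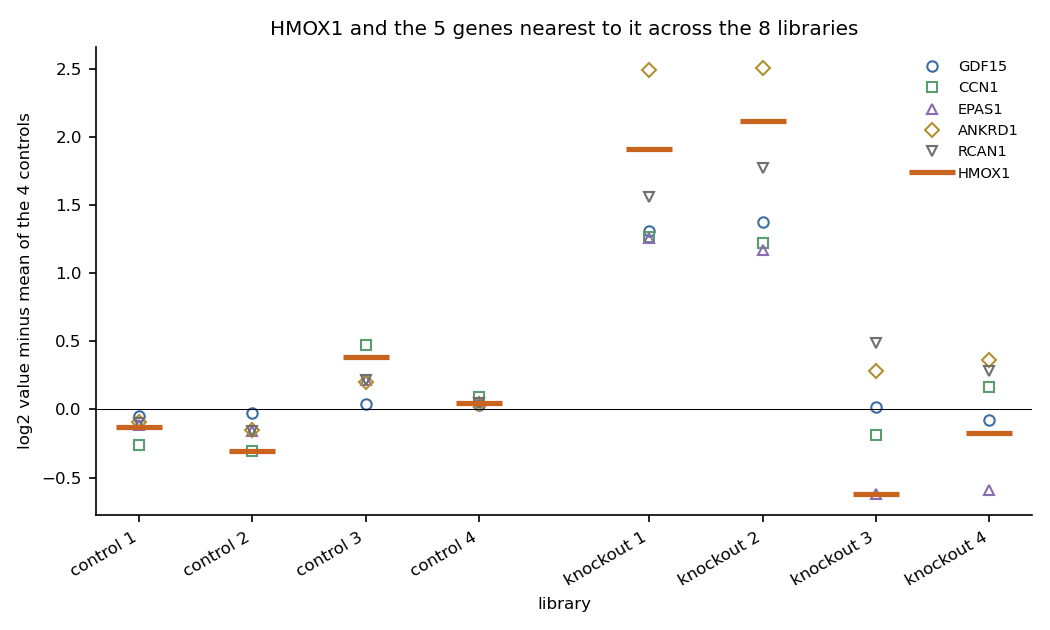
Log2 value minus the mean of the 4 controls (vertical axis) in each library for HMOX1 (orange bars) and the 5 genes nearest to it. All 6 genes lie above the control mean in knockout libraries 1 and 2. In replicates 3 and 4 the knockout minus control difference is -0.61 for HMOX1, -0.74 for EPAS1 and 0.20 for ANKRD1.

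The other genes of the pathway were taken from 8 lists of redox, heme, iron and stress genes, 207 genes beside the 10, of which 158 were tested. These were chosen from general knowledge, but with earlier results of these data known, so their tests are not independent of the data. Their knockout against control difference was tested in the same limma fit. Over all 8 libraries 23 passed (adjusted p under 0.05), 19 higher and 4 lower in the knockout. That is 14.6% of the 158, near the 13.1% of all genes (7.02% higher and 6.1% lower), and the median difference was 0.07 beside 0.01 for all genes. All 23 changed in the same direction in both replicate sets. The call itself favours this, since opposite directions would widen the spread within the knockout group. The count was sensitive to the libraries: it was 13, 12 and 10 without control library 1, 2 or 4, and 2 with each knockout pair averaged, when CDKN1A and ABCB10 were left. With the replicate block it was 19, all among the 23.

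Among the regulators of NRF2, none of 22 rose and 2 fell. CDKN1A, the p53 target p21 that can also shield NRF2 from KEAP1, was 4.99, 5.07, 5.10 and 5.05 in the controls and 3.99, 4.11, 4.23 and 4.15 in the knockout libraries, which did not overlap. It fell by 0.93 ± 0.07 (SE; limma adjusted p = 7.899e-04), with -0.98 in replicates 1 and 2 and -0.88 in replicates 3 and 4. SYVN1, an ubiquitin ligase of the endoplasmic reticulum, fell by 0.31 (limma adjusted p = 0.0269) and was called in 3 of the 8 fits that left out a library. The repressor BACH1 differed by 0.06 (limma adjusted p = 0.600). It was 3.96 to 3.98 in the controls and 3.92, 3.96, 4.16 and 4.08 in the knockout libraries, with libraries 3 and 4 above every control. The difference of BACH1 between the replicate sets, 0.18, did not pass (limma adjusted p = 0.120). CUL3, the ligase scaffold, differed by -0.05 (limma adjusted p = 0.703). The small MAF partners MAFF, MAFG and MAFK differed by -0.37, -0.16 and -0.13, and SQSTM1, the autophagy receptor that sequesters KEAP1, by -0.19. None of these 4 passed (limma adjusted p = 0.190, 0.309, 0.299 and 0.452).

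Of 30 other glutathione genes, 4 rose and none fell. CHAC2, which breaks glutathione down, rose by 0.66 ± 0.12 (SE; limma adjusted p = 0.0126), from a control mean of 1.27 ± 0.24 to 1.93 ± 0.12 (SD, n = 4 each). MGST1, a membrane glutathione transferase, rose by 0.52 (limma adjusted p = 0.00534), and GLRX5, a mitochondrial glutaredoxin of iron-sulfur cluster assembly, rose by 0.47 (limma adjusted p = 0.00878). SLC3A2, the heavy chain that partners SLC7A11, differed by -0.10 and GSR, glutathione reductase, by 0.14 (limma adjusted p = 0.811 and 0.214). In the thioredoxin and peroxiredoxin list 2 of 16 rose and none fell. TXNRD2, the mitochondrial counterpart of TXNRD1, was 1.65, 1.78, 1.92 and 1.78 in the controls and 2.99, 2.90, 2.51 and 2.31 in the knockout libraries. It rose by 0.90 ± 0.15 (SE; limma adjusted p = 0.00898) with no overlap of the groups, unlike TXNRD1. MSRB1, a methionine sulfoxide reductase, rose by 0.43 (limma adjusted p = 0.0176), a call lost without control library 1, 2 or 4, and TXN, the substrate of TXNRD1, differed by 0.08 (limma adjusted p = 0.646).

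In the heme and iron list 5 of 29 other genes rose and none fell. ABCB10, a mitochondrial transporter tied to heme synthesis, was 2.04, 2.06, 2.15 and 2.06 in the controls and 2.72, 2.79, 2.76 and 2.57 in the knockout libraries. It rose by 0.64 ± 0.07 (SE; limma adjusted p = 0.00176), by 0.71 in replicates 1 and 2 and by 0.56 in replicates 3 and 4. ABCB6, a porphyrin transporter, rose by 0.47 (limma adjusted p = 0.0148), a call lost without control library 4. SLC25A39, a mitochondrial carrier of glutathione, rose by 0.32 (limma adjusted p = 0.0168), a call lost without control library 1, 2 or 4. HMOX2, the constitutive heme oxygenase, differed by 0.09 (limma adjusted p = 0.541). The biliverdin reductases BLVRA and BLVRB, which take the next step after heme oxygenase, differed by -0.04 and 0.15 (limma adjusted p = 0.740 and 0.333). FTH1, the heavy chain of ferritin, differed by 0.18 (limma adjusted p = 0.350), and like FTL it belongs to a family with many pseudogenes.

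**Figure D4:**
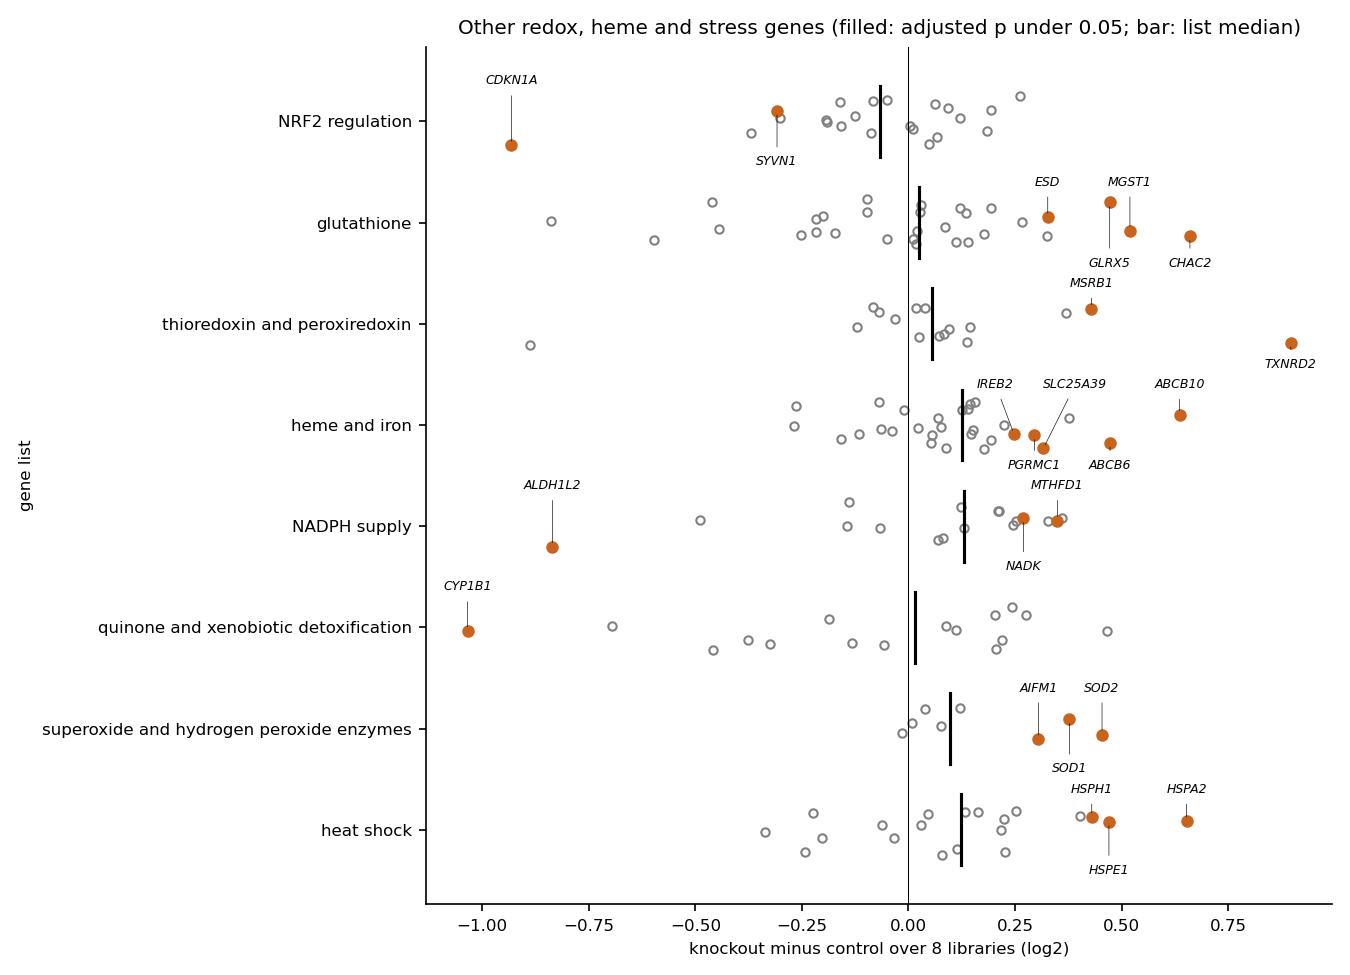
Knockout minus control log2 difference over 8 libraries (horizontal axis) of the other pathway genes, one point per gene and one row per list, with points spread vertically at random within a row. Filled orange points are genes with an adjusted p under 0.05, and black bars are list medians. Of the genes that passed, CYP1B1 and CDKN1A lie farthest to the left (-1.03 and -0.93) and TXNRD2 farthest to the right (0.90).

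Among the genes that supply NADPH, the reductant of these enzymes, 2 of 17 rose and 1 fell. MTHFD1, of folate metabolism, rose by 0.35 and NADK, which makes NADP, by 0.27 (limma adjusted p = 0.0427 and 0.0258); each was called in only 2 of 8 fits that left out a library. NADK was not called with the replicate block (limma adjusted p = 0.0650; 0.0117 to 0.160 over all alternatives). ALDH1L2, a mitochondrial folate dehydrogenase, fell by 0.84 ± 0.17 (SE; limma adjusted p = 0.0171), a call lost without control library 1, 2 or 4. The NRF2 target ME1 differed by -0.14 (limma adjusted p = 0.537). Of 16 genes of quinone and xenobiotic detoxification none rose and 1 fell, the cytochrome P450 gene CYP1B1. It was 2.30, 2.06, 1.36 and 1.98 in the controls and 0.81, 0.95, 0.93 and 0.86 in the knockout libraries and fell by 1.03 ± 0.18 (SE; limma adjusted p = 0.00969). CYP1B1 met the minimum mean of 1 only through the controls, with a mean of 1.92 there and 0.89 in the knockout libraries.

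Of 8 superoxide and hydrogen peroxide genes 3 rose. SOD1, the cytosolic superoxide dismutase, rose by 0.38 ± 0.07 (SE; limma adjusted p = 0.0117), and its mitochondrial relative SOD2 by 0.45 (limma adjusted p = 0.0186), a call lost without control library 1, 2 or 4. AIFM1, a mitochondrial flavoprotein, rose by 0.30 (limma adjusted p = 0.0299; 0.0593 with the replicate block, and 0.0122 to 0.145 over all alternatives) and was called in 2 of 8 fits that left out a library. In the heat shock list 3 of 20 rose: HSPA2, HSPE1 and HSPH1, chaperones or their partners, by 0.65, 0.47 and 0.43 (limma adjusted p = 0.0321, 0.00815 and 0.00474). HSPA2 lost its call without control library 4 or without knockout library 2, 3 or 4. Its mean was 0.75 in the controls and 1.41 in the knockout libraries, so it met the minimum mean of 1 only through the knockout libraries.

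Whether the knockout difference itself depended on the replicate set was tested for these 158 genes with an interaction term (replicates 3-4 minus replicates 1-2, limma on 4 group means). It passed for 58 of them (36.7%), 38 negative and 20 positive, against 41.3% of all genes tested (22.9% negative, 18.4% positive). The count was 36 without knockout library 1. The test rests on the small spread inside pairs. Negative values mean, as for HMOX1, a lower knockout difference in replicates 3 and 4. They were found for SESN2 (-2.03), CHAC1 (-1.62), TRIM16L (-1.48), TRIM16 (-1.13), HSPA8 (-0.86), MTHFD2 (-0.85), GLO1 (-0.83) and MAFF (-0.74), with limma adjusted p from 7.2e-05 to 0.00221. In SESN2 the controls were 2.84, 2.82, 2.58 and 2.73 and the knockout libraries 2.96, 2.96, 0.56 and 0.95. CHAC1 was 2.12, 2.15, 1.85 and 2.06 in the controls and 2.09, 2.13, 0.43 and 0.18 in the knockout libraries. In both genes knockout libraries 3 and 4 lay below all other libraries, as they did for SLC7A11, and the difference in replicates 1 and 2 was small (0.13 and -0.03). SESN2, CHAC1, MTHFD2 and SLC7A11 are also known targets of ATF4, the factor of the amino acid response. A part of ATF4 in these values was not tested. SLC3A2, the partner of SLC7A11, had 0.32 in replicates 1 and 2 and -0.51 in replicates 3 and 4 (limma adjusted p of the set difference 4.2e-04).

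Several proteins that act beside the listed genes also had negative set differences: SQSTM1 (-0.60, limma adjusted p = 9.6e-04), TXNRD2 (-0.66, 0.00344), NADK2 (-0.68, 0.00100), TXN (-0.41, 0.00886), ME1 (-0.47, 0.0271), HSPA4 (-0.49, 0.0133), FTH1 (-0.43, 0.0278), CCS (-0.38, 0.0179) and POR (-0.34, 0.0153). TXNRD2 rose in both sets, by 1.23 and 0.56 (limma adjusted p = 2.3e-05 and 0.00104), calls made within the sets for 47.9% and 44.1% of all genes. HMOX2 had -0.32 (limma adjusted p = 0.0530; 0.0480 with the replicate block, and 0.00978 to 0.186 over all alternatives). Positive set differences were found for BAG3, a heat shock co-chaperone (1.08), NFE2L3, a relative of NRF2 (0.93), IDH2, the mitochondrial NADPH source (0.93), and ALAD, of heme synthesis (0.90), with limma adjusted p from 1.4e-04 to 2.4e-04. NFE2L3 was 4.64, 4.67, 4.77 and 4.84 in the controls and 3.82, 3.95, 5.00 and 4.94 in the knockout libraries. It was low in knockout libraries 1 and 2 and above all controls in 3 and 4. Smaller positive values were seen for CBR3 (0.66), ALDH3A2 (0.66), RXRA (0.62), STEAP3 (0.61), MGST2 (0.46), GSTZ1 (0.42), DNAJA1 (0.38) and CAT (0.28), with limma adjusted p from 6.6e-04 to 0.0380. CAT did not pass with the replicate block (limma adjusted p = 0.0575; 0.0112 to 0.127 over all alternatives). CHAC2, which rose over all 8 libraries, had -0.56 (limma adjusted p = 0.00488). Of the 31 genes named for a set difference, 24 were called in all 8 fits that left out a library. The exceptions were MGST2, FTH1, POR, CCS, CAT, HSPA4 and ME1.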

How the data were processed

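RNA from 143B cells was made into 8 libraries with a stranded total RNA kit, per the labels' protocols. It is given as 1 log2 value per gene and library. The values were deposited by the authors as log2 values, quantile normalized between libraries, per the file headers. All 8 libraries share 1 mean (1.07) and 1 median (1.77). The submitters' processing notes name bcl2fastq, Partek 7.0 and GRCh38. The aligner, the counting rule and the unit before the logarithm are not given in the sources used here, and base 2 was taken from the range of the values. Sequencing depth is therefore unknown, and 14911 to 15171 genes had a value per library.

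Genes blank in any library or averaging under 1 were left out, and the remaining 9016 were fitted with limma 3.58.1 (R 4.3.3) on the deposited scale. P-values were adjusted by Benjamini-Hochberg over these genes, and a gene was called at an adjusted p under 0.05. A second limma fit used 4 means, group by replicate set. On simulated data, 200 of the 9016 genes were changed by 1 log2 unit. Of these, 100% were recovered for knockout against control, with 5.66% false calls, and 92% for the set difference, with 3.16%. The simulated noise took its spread from the fit with 4 means, so it held no difference between the replicate sets. The real knockout libraries did differ between sets, so the shares for knockout against control do not carry over to them. Alternatives were other filters, centring, a pseudocount of 1, a batch term, averaged knockout pairs, a replicate block and each library left out.

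Same-numbered knockout and control libraries deviated together (correlations 0.24, 0.27, 0.29 and 0.20). The numbers were taken as pairs in the replicate block only, and the main knockout against control fit did not use them. The labels do not state a pairing. Libraries of different numbers were not compared in this way, so the correlations do not show whether the link is by number or by replicate set. The 10 genes and the pathway lists were chosen with earlier results of these data known. Named were these 10 genes and NELL1, per list up to 3 called genes with the largest rise and fall and up to 2 with the largest set difference each way, 15 fixed partners of NRF2 and HMOX1, and the 5 genes nearest to HMOX1; 1 gene that this rule picks is not reported here. Gene positions are from GENCODE 29.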

Additional observations from a re-analysis of the deposited data

Results flagged for a closer look

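Opposite signs in the replicate sets, with every library of a set on its side, were found for HMOX1 (replicates 3-4 minus replicates 1-2, -2.84 log2 units), GCLM (-1.14), SRXN1 (-0.84) and FTL (-0.87). The difference was not tested for these, since they were listed with it known.

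The interaction term of limma gave a set difference for 31 other named genes. Negative were SESN2 (-2.03), CHAC1 (-1.62), TRIM16L (-1.48), TRIM16 (-1.13), HSPA8 (-0.86), MTHFD2 (-0.85), GLO1 (-0.83), SLC3A2 (-0.83), MAFF (-0.74), NADK2 (-0.68), TXNRD2 (-0.66), SQSTM1 (-0.60), CHAC2 (-0.56), HSPA4 (-0.49), ME1 (-0.47), FTH1 (-0.43), TXN (-0.41), CCS (-0.38) and POR (-0.34). Positive were BAG3 (1.08), NFE2L3 (0.93), IDH2 (0.93), ALAD (0.90), CBR3 (0.66), ALDH3A2 (0.66), RXRA (0.62), STEAP3 (0.61), MGST2 (0.46), GSTZ1 (0.42), DNAJA1 (0.38) and CAT (0.28).

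In 10 of 134 groups of 4 libraries examined, 1 library stood apart from the other 3 by Dixon's criterion. Chance alone meets it in about 1 in 20 independent groups, but these groups share libraries and are not independent. All 10 were controls. Knockout libraries that lie in close pairs leave little room to meet the criterion, so this says little about the groups. Control library 3 was low for TXNRD1 (5.82), BLVRB (4.26) and GSR (4.08) and high for MAFF (4.04), GLRX5 (5.66), SLC25A39 (5.11), SOD1 (6.71) and HMOX2 (3.69). Control library 4 was high for HSPE1 (6.61) and HSPH1 (3.58).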

How the results depend on the processing

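The HMOX1 difference over all libraries stayed positive under every alternative, between 0.37 and 1.28 with 1 library left out. Every alternative kept knockout library 1 or 2, so the steady sign says little. In replicates 3-4 the difference was -0.61. Small differences within a set changed sign with 1 library left out: KEAP1 in replicates 3-4 (0.10 to -0.06), TXNRD1 in replicates 3-4 (0.11 to -0.01), GCLC in replicates 3-4 (-0.03 to 0.01) and SLC7A11 in replicates 1-2 (0.02 to -0.08, and just below 0 with median centring or further quantile normalization). SLC3A2, not called over all libraries, went from -0.10 to 0.06. No called gene that is named changed direction. Genes called for knockout against control numbered 1183 (633 higher, 550 lower). There were 729 with a mean of at least 3, 108 with knockout pairs averaged (44 higher, 64 lower, so that the balance turned), 2274 with a batch term, 272 at an adjusted p under 0.01 and 391 to 1353 with 1 library left out. For the 23 pathway genes these were 15, 2, 41, 8 and 10 to 28. The 3721 genes called for the set difference became 2023 with a mean of at least 3, 2102 at 0.01 and 2420 to 4368 with 1 library left out. The 58 pathway genes became 29 at 0.01 and 36 to 70. Within replicates 1-2, 4318 genes were called, 2381 with a mean of at least 3, 2713 at 0.01 and 2507 to 5168 with 1 left out. Within replicates 3-4, 3979 were called, 2209 with a mean of at least 3, 2653 at 0.01 and 2855 to 4281 with 1 left out; 1920 were higher and 2059 lower, against 2126 and 2089 without control library 4. With the replicate block 924 genes and 19 pathway genes were called. Among the genes named above it changed the calls of NADK and AIFM1 (knockout against control) and of CAT and HMOX2 (set difference), and no other call. The cause of these shifts was not tested, apart from the fewer genes a stricter filter tests. Of the values for the 10 genes, 348 moved by less than the spread and 18 by more. This is no measure of stability. Leaving out a library of 1 replicate set cannot change the difference within the other set. For differences over all libraries the spread was the larger group SD, which holds the split between the knockout pairs. The HMOX1 difference over all libraries was not in the count. Depth is unknown, so counting error cannot be given.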
